A study of Homo sapiens with 18 samples.

Results

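Reads on MIR3687, AL592188.1, AL592188.6 and 5S_rRNA were followed across all 18 libraries of a melanoma drug study. These are 4 of the 20705 rows of its gene count table, and carry the names of a microRNA gene, of a sequenced clone and of 5S ribosomal RNA. MIR3687 was picked for its fall in A375 after 6 days of CDK4/6 inhibition against the control of the same day. AL592188.6 was picked for its rise in CHL1 between 72 hours and 6 days of CDK4/6 inhibition, and AL592188.1 and 5S_rRNA were added to them with no contrast given. The levels below are therefore a description, and the contrasts behind the choice carry no test. The question was whether these reads follow the set that a library belongs to by its name, the treatment, or the GC content trend of the library. Both cell lines, CHL1 and A375, are established lines from human melanomas. The labels give both as wild type, while the methods of the study describe CHL1 as wild type for BRAF and NRAS with mutant p53, and A375 as BRAF mutant with wild-type p53. CHL1 received DMSO for 72 hours (control_72hr), 1 µM palbociclib, which blocks the kinases CDK4 and CDK6, for 72 hours or 6 days (CDK4/6i_72hr and CDK4/6i_6d), or 500 nM GSK3326595, which blocks the arginine methyltransferase PRMT5, for 72 hours (PRMT5i_72hr). A375 had the same groups and a DMSO control of 6 days (control_6d), which gives 9 groups of 2 replicates. Each line stands for 1 tumour.

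Ribosomal DNA is a tandem repeat that RNA polymerase I reads into a long precursor. The precursor holds an external spacer at its 5′ end, then the 18S, 5.8S and 28S ribosomal RNAs with internal spacers between them, and the spacers are cut out in the nucleolus and degraded. 5S ribosomal RNA comes from other repeats that RNA polymerase III reads. None of these RNAs carries the long poly(A) tail of a messenger RNA, so libraries made with poly-T beads hold only the part that escapes the selection. MIR3687 and its neighbour MIR3648 were named as microRNAs, but libraries of fragmented poly(A)-selected RNA do not measure a mature microRNA.

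The annotation of GRCh37, the build used by the study, has MIR3687 (ENSG00000264063.1) as a microRNA gene on the plus strand of chromosome 21, at chr21:9826203-9826263, with a length of 61 bases and a GC content of 78.7%. MIR3648 lies 192 bases upstream at chr21:9825832-9826011, has a length of 180 bases and a GC content of 83.9%, and was counted in its own row. RefSeq, on GRCh38.p14, places the gene MIR3648-1 inside the ribosomal precursor RNA45SN2 and before its 18S part, RNA18SN2, that is, in the external spacer. The window around MIR3687 is shown because all reads counted for that row have to overlap it. It covers chr21:9826084-9826383, has a GC content of 83.0%, and MIR3687 itself is in capitals.
MIR3687 window: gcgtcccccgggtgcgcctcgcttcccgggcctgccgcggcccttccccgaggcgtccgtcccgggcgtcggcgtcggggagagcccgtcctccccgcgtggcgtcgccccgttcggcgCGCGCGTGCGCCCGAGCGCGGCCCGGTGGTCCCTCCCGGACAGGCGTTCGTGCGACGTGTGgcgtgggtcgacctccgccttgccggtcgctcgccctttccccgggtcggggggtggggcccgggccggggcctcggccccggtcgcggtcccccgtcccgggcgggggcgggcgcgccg

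The same 300 bases occur 2 more times in the GRCh37 assembly with 1 difference, at GL000220.1:108161-108460 and GL000220.1:152133-152432, an unplaced contig. The microRNA gene is shown beside its copy because the 2 can be told apart by that base alone, which is in capitals. The substitution is C35G, counted from the 5′ end of MIR3687, and the copies at GL000220.1:108280-108340 and GL000220.1:152252-152312 are identical to each other.
MIR3687: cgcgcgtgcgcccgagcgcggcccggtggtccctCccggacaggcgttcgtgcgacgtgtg
Copy of MIR3687: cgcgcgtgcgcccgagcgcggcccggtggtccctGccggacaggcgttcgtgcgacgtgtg

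MIR3648 also has 2 copies on that contig, with the substitutions G27C and T117C. Read pairs that miss the differing bases match several places equally, and the counting program skips such reads by default, so the counts depend on where the aligner placed reads of a repeat. The AL592188 rows have no entry in the annotation used here, and their positions are not given. AL592188 is the name of a sequenced clone, its rows are grouped here by that name, and no table used here shows that the clone holds ribosomal DNA. The 5S_rRNA row is a family name: 8 genes on 5 chromosomes carry it in GENCODE 44 on GRCh37, with lengths from 112 to 126 bases, and which of them the row counts is unknown. Counts of all 4 rows are uncertain in this sense.

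The libraries held 16213475 to 37424081 counted reads. Their names put them in 2 sets: SA-SPLICE19 holds CHL1 entire and 6-day A375, and A375-72hr holds the 6 A375 libraries of 72 hours. Time and set therefore cannot be told apart within A375. A GC index was computed for each library as its log2 deviation from the median library of its cell line in the most GC-rich 10% of genes, less its deviation in the most GC-poor 10%. It was -2.32 and -1.88 in CHL1 PRMT5i_72hr and -2.18 and -1.09 in A375 control_6d, and lay between -0.33 and 0.56 in the other 14 libraries. The 18S, 5.8S and 28S rows took 0.0502% to 1.63% of the reads. Of the melanocyte markers, MITF, the master regulator of the lineage, was at 63.8 to 211 CPM, and S100B at 11.2 to 128 CPM in CHL1 and 3.57 to 108 CPM in A375. DCT, a pigment enzyme, was at 36.3 to 142 CPM in CHL1 and 0 to 1.79 CPM in A375, PMEL did not exceed 3.25 CPM and TYRP1 4.01 CPM in either line, TYR was at 0 in at least 1 library of each, and MLANA, SOX10 and S100A1 are not in the table used.

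MIR3687 was abundant, ranking 37 of 20705 rows by mean level, and varied from 3 to 82053 reads per library. Levels are in CPM, read counts divided by a library total that was scaled by the trimmed mean of M-values (TMM). In CHL1 the replicates were at 281 and 240.0 CPM in control_72hr, 323 and 179 CPM in CDK4/6i_72hr, 439 and 596 CPM in CDK4/6i_6d, and 73.2 and 113 CPM in PRMT5i_72hr. The PRMT5i replicates were the lowest of the 8 CHL1 libraries and the 6-day replicates the highest. In A375 of 72 hours it was at 1084 and 2362 CPM in the control, 2631 and 3005 CPM under CDK4/6i and 3239.7 and 4982 CPM under PRMT5i. In A375 of 6 days it was at 110.1 and 193 CPM in the control and at 0.082 and 0.481 CPM under CDK4/6i, which is 3 and 18 reads. All 6 A375 libraries of 72 hours were above every CHL1 library, and both A375 CDK4/6i_6d libraries were below every other library. In the order of the 9 groups by mean, the 5th to the 8th, from CHL1 control_72hr over CHL1 CDK4/6i_72hr and A375 control_6d to CHL1 PRMT5i_72hr, overlapped each with the next, and the other neighbours did not. In bulk libraries, fewer cells of a type and less RNA per cell cannot be told apart.

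**Figure D1:**
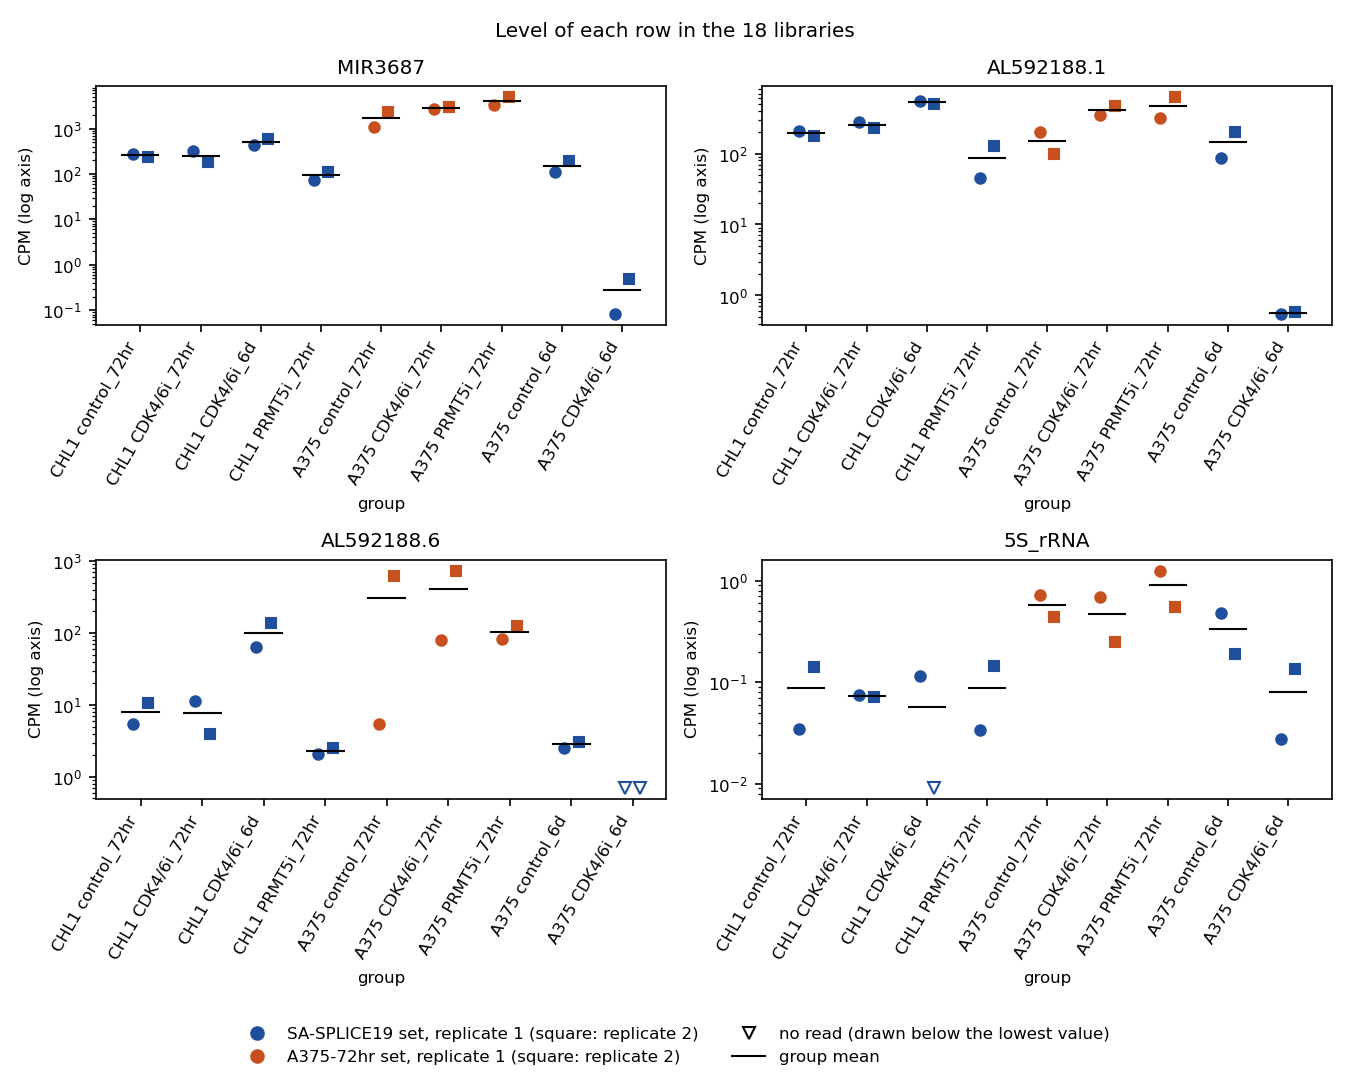
Level of each row in each library, in CPM on a log axis, with groups on the horizontal axis; circles are replicate 1, squares replicate 2, short lines group means, and open triangles libraries without a read. A375 CDK4/6i_6d lies far below the other groups for MIR3687 and AL592188.1 and has no AL592188.6 read, while 5S_rRNA stays at or below 1.26 CPM everywhere.

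AL592188.1 ranked 684 by mean level and spread less between the cell lines. In CHL1 its replicates were at 207 and 178 CPM in control_72hr, 279 and 228 CPM in CDK4/6i_72hr, 554 and 498 CPM in CDK4/6i_6d, and 44.8 and 127 CPM in PRMT5i_72hr. In A375 of 72 hours they were at 200.0 and 97.4 CPM in the control, 354 and 464 CPM under CDK4/6i and 317 and 628 CPM under PRMT5i. In A375 of 6 days they were at 87.8 and 203 CPM in the control and 0.546 and 0.588 CPM under CDK4/6i. The A375 libraries of 72 hours thus overlapped with the CHL1 libraries in this row, unlike in MIR3687. The CHL1 CDK4/6i_6d and A375 PRMT5i_72hr replicates led the order and overlapped with each other and, for the latter, with A375 CDK4/6i_72hr, and A375 CDK4/6i_6d was again separate and lowest.

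AL592188.6 was the most variable row between replicates. In CHL1 it was at 5.46 and 10.6 CPM in control_72hr, 11.4 and 3.92 CPM in CDK4/6i_72hr, 63.2 and 137 CPM in CDK4/6i_6d, and 2.11 and 2.51 CPM in PRMT5i_72hr. In A375 control_72hr the replicates stood at 5.41 and 616 CPM, a ratio of 114. In A375 CDK4/6i_72hr they were at 80.7 and 741 CPM and in PRMT5i_72hr at 83.2 and 125 CPM. In A375 control_6d they were at 2.55 and 3.10 CPM, and A375 CDK4/6i_6d had 0 reads in both libraries. The pair of CHL1 libraries of 6 days was above the other 6 CHL1 libraries. No order among the 3 A375 groups of 72 hours could be drawn, since their replicates overlapped.

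5S_rRNA hardly registered, with 0 to 23 reads per library. The highest library was A375 PRMT5i_72hr replicate 1 at 1.26 CPM. In CHL1 no library exceeded 4 reads or 0.143 CPM, and CHL1 CDK4/6i_6d replicate 2 had 0 reads, which allows up to 3. The 6 A375 libraries of 72 hours had 5 to 23 reads, those of A375 control_6d 16 and 6, and those of A375 CDK4/6i_6d 1 and 5. At this depth only large differences in 5S_rRNA could be detected.

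The levels were set beside library set, condition and GC index, which no test here separates. The SA-SPLICE19 set held MIR3687 at 0.082 to 596 CPM and the A375-72hr set at 1084 to 4982 CPM, without overlap. AL592188.1 overlapped between the sets, from 0.546 to 554 CPM against 97.4 to 628 CPM, and AL592188.6 did so too, from 0 to 137 CPM against 5.41 to 741 CPM. The 4 libraries with a GC index below -1 held MIR3687 at 73.2 to 193 CPM, AL592188.1 at 44.8 to 203 CPM and AL592188.6 at 2.11 to 3.10 CPM. For AL592188.6 these 4 lay below all 12 other libraries with a read, and for the other 2 rows they overlapped with CHL1 libraries without the trend. The A375 CDK4/6i_6d libraries, with the lowest levels, had a GC index of -0.30 and -0.33, nearer to the other libraries than to those 4. Among the 6 CHL1 libraries without the trend, Pearson's r between log2(CPM + 1) and the GC index was 0.40 for MIR3687, 0.24 for AL592188.1 and 0.29 for AL592188.6, with Spearman's rho of 0.14, 0.09 and 0.09. Among the 6 A375 libraries of 72 hours r was 0.47, 0.74 and 0.37, with rho of 0.49, 0.83 and 0.26. These correlations describe 6 libraries each, which share treatments as replicates, and carry no test.

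**Figure D2:**
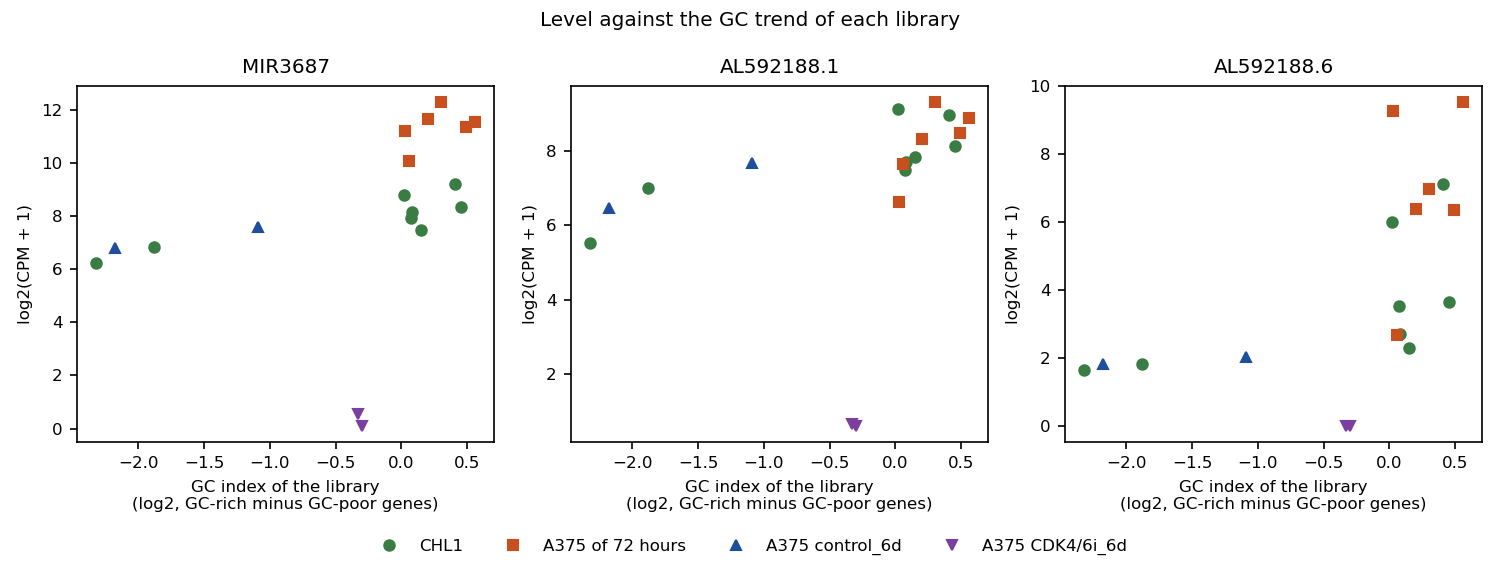
Level of MIR3687, AL592188.1 and AL592188.6 as log2(CPM + 1) on the vertical axis against the GC index of each library on the horizontal axis, 1 point per library. The 4 libraries with an index below -1 sit below most others, and the A375 CDK4/6i_6d libraries, at an index of -0.30 and -0.33, sit lowest.

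PRMT5 inhibition in CHL1 was compared with control_72hr to see whether the rows changed with that drug. MIR3687 fell by 1.47 on the log2 scale (SE 0.28), which is 2.76-fold, with an adjusted p of 0.00096. AL592188.1 fell as well, at -1.14 (SE 0.35, adjusted p = 0.015), and so did AL592188.6, at -1.78 (SE 0.51, adjusted p = 0.0109). 5S_rRNA had a log2 fold change of 0.01 with an interval from -2.46 to 2.47 and an adjusted p of 1. These are edgeR quasi-likelihood tests with Benjamini-Hochberg adjustment over all 20705 rows, called at an adjusted p below 0.05. Of all rows 54% were called, against 3 of 4 here, so a call was common in this comparison. Both libraries of this group have a GC index below -1. With the smooth GC curve of each library as an offset, the change of MIR3687 was -0.17 (adjusted p = 0.571), against -1.45 (adjusted p = 0.00135) on the same genes without the curve. Only MIR3648 and MIR3687 itself reach its GC content among the 13655 genes of the index, so the curve has little support there, and the AL592188 rows have no GC value. The call of AL592188.1 was lost without CHL1 control_72hr replicate 1 (adjusted p = 0.0743), and its change was -0.57 without PRMT5i_72hr replicate 1 and -2.09 without replicate 2. That of AL592188.6 was lost without control_72hr replicate 2 (0.105), without PRMT5i_72hr replicate 1 (0.0807), with limma voom (0.0702) and in a fit of all 18 libraries (0.262).

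The A375 libraries of 72 hours allowed both drugs to be compared with a control within 1 library set. Under CDK4/6i, AL592188.1 rose by 1.40 on the log2 scale (SE 0.39, 2.64-fold, adjusted p = 0.0253). MIR3687 had a log2 fold change of 0.65 (SE 0.37, adjusted p = 0.28), AL592188.6 of 0.35 (SE 1.11, adjusted p = 0.885) and 5S_rRNA of -0.38 (SE 0.69, adjusted p = 0.778). In this comparison 13.3% of all rows were called, against 1 of 4 here. Under PRMT5i, AL592188.1 rose by 1.65 (SE 0.39, 3.13-fold, adjusted p = 0.0346), where 2.61% of all rows were called. MIR3687 had a log2 fold change of 1.24 (SE 0.38) whose adjusted p of 0.0991 missed the threshold. Both its PRMT5i replicates lay above both controls, and the share of all rows separated in this way was not counted. AL592188.6 was at -1.59 (SE 1.14, adjusted p = 0.547) and 5S_rRNA at 0.63 (SE 0.65, adjusted p = 0.692). Both comparisons share the same control libraries. The tests above did not pair the libraries. Deviations of same-numbered replicates correlated at 0.104, 0.353 and 0.132 between groups, and an alternative fit took the replicate numbers as pairs. The labels give no pairing, and CHL1 had correlations up to 0.269, so the pairing in that fit is an assumption. A fit of the 6 libraries with the replicate number as a block called more. With this replicate block MIR3687 passed under CDK4/6i (0.75, adjusted p = 7.44e-09) and PRMT5i (1.29, adjusted p = 1.43e-21), and AL592188.6 passed under CDK4/6i (0.99, adjusted p = 6.13e-07). That fit leaves 2 residual degrees of freedom, and it called 42.3% of all rows under CDK4/6i and 29.5% under PRMT5i, against 31% and 15.8% in the same 6 libraries without the block.

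The calls in A375 rest on few libraries. That of AL592188.1 under CDK4/6i was lost without control_72hr replicate 2 (log2 fold change 1.00, adjusted p = 0.222) and without either CDK4/6i_72hr replicate (0.06 and 0.165). With limma voom, DESeq2 or library totals alone its adjusted p was 0.0532, 0.0794 and 0.0555. Under PRMT5i the call of AL592188.1 was lost in 6 of 10 fits that left out a library: without control_72hr replicate 1 (0.0805) or 2 (0.298), PRMT5i_72hr replicate 1 (0.076) or 2 (0.433), or CDK4/6i_6d replicate 1 (0.0528) or 2 (0.0534). It was also lost with limma voom (0.104), DESeq2 (0.0725), library totals alone (0.0859) and a filter on low counts (0.0506). MIR3687 under PRMT5i passed the threshold without control_6d replicate 1 (0.0317) or 2 (0.032). The AL592188.6 value turned with the discordant control: without control_72hr replicate 2 it was 6.21 under CDK4/6i (adjusted p = 0.00363) and 4.24 under PRMT5i (adjusted p = 0.0833), while without replicate 1 it was -0.64 and -2.57.

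The response to PRMT5i was then compared between the cell lines in a fit of all 18 libraries. The CHL1 response minus the A375 response was -2.74 on the log2 scale for MIR3687 (SE 0.55, adjusted p = 0.00104) and -2.83 for AL592188.1 (SE 0.61, adjusted p = 0.00156). For AL592188.6 it was -0.22 (SE 1.67, adjusted p = 0.971), and -6.11 (adjusted p = 0.00252) without A375 control_72hr replicate 2, and for 5S_rRNA -0.65 (SE 1.37, adjusted p = 0.759). Here 40.9% of all rows were called. Both calls were kept without each of the 18 libraries in turn, with differences from -3.46 to -2.24 for MIR3687 and from -3.71 to -2.24 for AL592188.1. With the GC curve as an offset the difference of MIR3687 was -1.40 and its adjusted p 0.0721. Cell line and library set cannot be told apart in this comparison, since CHL1 lies in one set and the A375 libraries of 72 hours in the other.

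**Figure D3:**
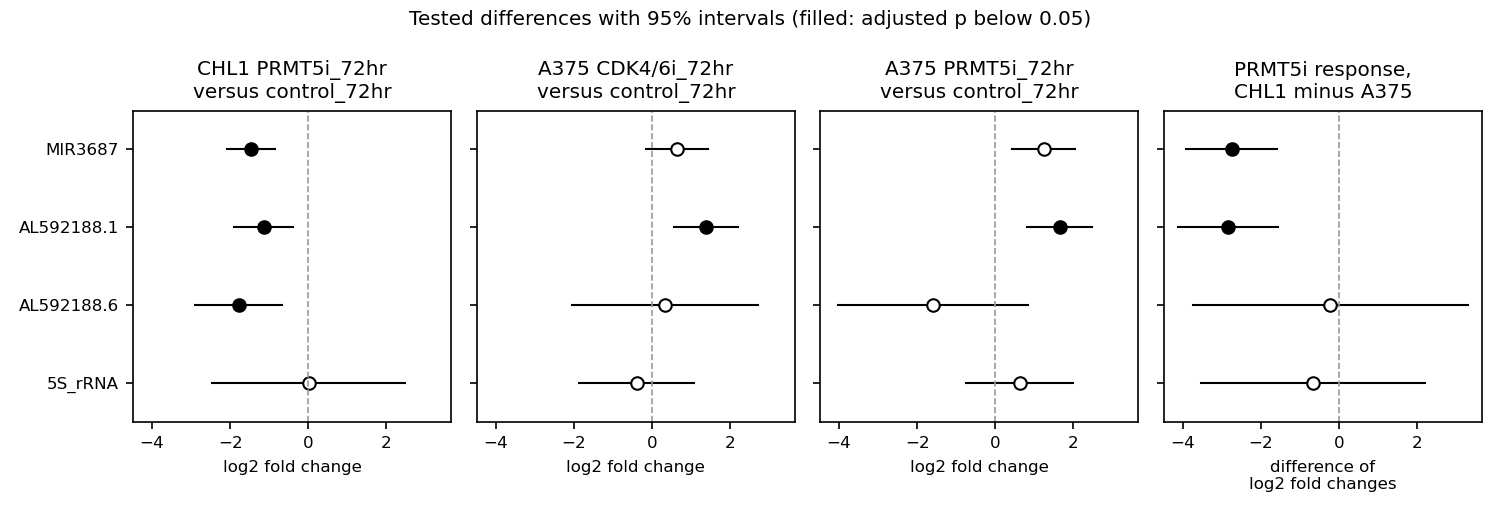
Log2 fold changes of the 4 rows in the 3 tested treatment comparisons and the difference between the cell lines, with 95% intervals; filled points have an adjusted p below 0.05. MIR3687 and AL592188.1 lie below 0 in CHL1 under PRMT5i and above 0 in A375. Intervals span 0 for MIR3687 in A375 under CDK4/6i, for AL592188.6 in A375 and between the lines, and for 5S_rRNA.

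The remaining contrasts are given as a description, because the rows were chosen on them or on libraries they share. From control_6d to CDK4/6i_6d in A375, the log2 fold change was -9.05 (SE 0.59) for MIR3687 and -8.00 (SE 0.56) for AL592188.1. AL592188.6, with 0 reads in both treated libraries, was at least 34.9-fold lower, taking 3 reads per library as the floor, and 5S_rRNA was at -1.99 (SE 0.83). For MIR3687 the value was -8.30 without CDK4/6i_6d replicate 1 and -10.77 without replicate 2, which follows from counts of 3 and 18. Between the A375 controls of 72 hours and of 6 days, which lie in different sets, MIR3687 differed by -3.54 (SE 0.41), AL592188.6 by -6.81 (SE 1.47) and AL592188.1 by -0.06 (SE 0.38). Without control_72hr replicate 2 the value of AL592188.6 was -0.90. In CHL1, CDK4/6i_6d against control_72hr gave 1.00 (SE 0.28) for MIR3687, 1.47 (SE 0.35) for AL592188.1 and 3.64 (SE 0.48) for AL592188.6. CHL1 has no control of 6 days, so drug and time in culture cannot be told apart in this contrast. Against CDK4/6i_72hr the same libraries gave 1.06 (SE 0.28), 1.07 (SE 0.35) and 3.71 (SE 0.49). CDK4/6i_72hr against control_72hr gave -0.05 (SE 0.27), 0.40 (SE 0.34) and -0.07 (SE 0.47). Within the SA-SPLICE19 set, CDK4/6i_6d thus lay above its comparison groups in CHL1 and below control_6d in A375 for MIR3687, AL592188.1 and AL592188.6. Only the A375 contrast has a control of the same time. That control had a GC index of -2.18 and -1.09, and the part of the GC trend in the contrast was not tested.

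The other AL592188 rows and rows of ribosomal RNA were set beside MIR3687 as a description. MIR3648, its neighbour in the external spacer, had 0.462 to 0.891 reads per MIR3687 read in the 16 libraries outside A375 CDK4/6i_6d. In those 2 libraries, with 114 and 187 reads of MIR3648, it had 38 and 10.4. AL592188.2 was at 282 and 274 CPM in A375 control_6d and 14.9 and 18.5 CPM in A375 CDK4/6i_6d, and RNA5-8S5, the 5.8S row, at 249 and 254 CPM against 9.45 and 7.27 CPM. AL592188.8 had 92 to 157 reads in the control libraries and 0 to 3 in the treated ones, a mean at least 47.4-fold lower, and AL592188.5 had 6 and 16 reads in the control and 0 reads in both treated libraries. AL592188.4 had 10402 and 1014 reads against 499 and 4. AL592188.3 went the other way, with 3 and 3 reads in control_6d and 11 and 7 in CDK4/6i_6d. RNA18S5 and RNA28S5, the 18S and 28S rows, were lower by less. RNA18S5 was at 3855 and 4046 CPM in control_6d and 1692 and 804 CPM in CDK4/6i_6d, and RNA28S5 at 4932 and 5093 CPM against 1415 and 655 CPM. In CHL1, RNA18S5 was highest in CDK4/6i_72hr, at 7461 and 4949.8 CPM, where MIR3687 was at 323 and 179 CPM. RNA28S5 reads per MIR3687 read ranged from 0.169 in A375 PRMT5i_72hr replicate 1 to 44.8 in A375 control_6d replicate 1, and were 17260.0 and 1361 in A375 CDK4/6i_6d. RNA18S5 also varied within a group, with 1445 and 70 CPM in the replicates of A375 control_72hr, a ratio of 20.7.

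**Figure D4:**
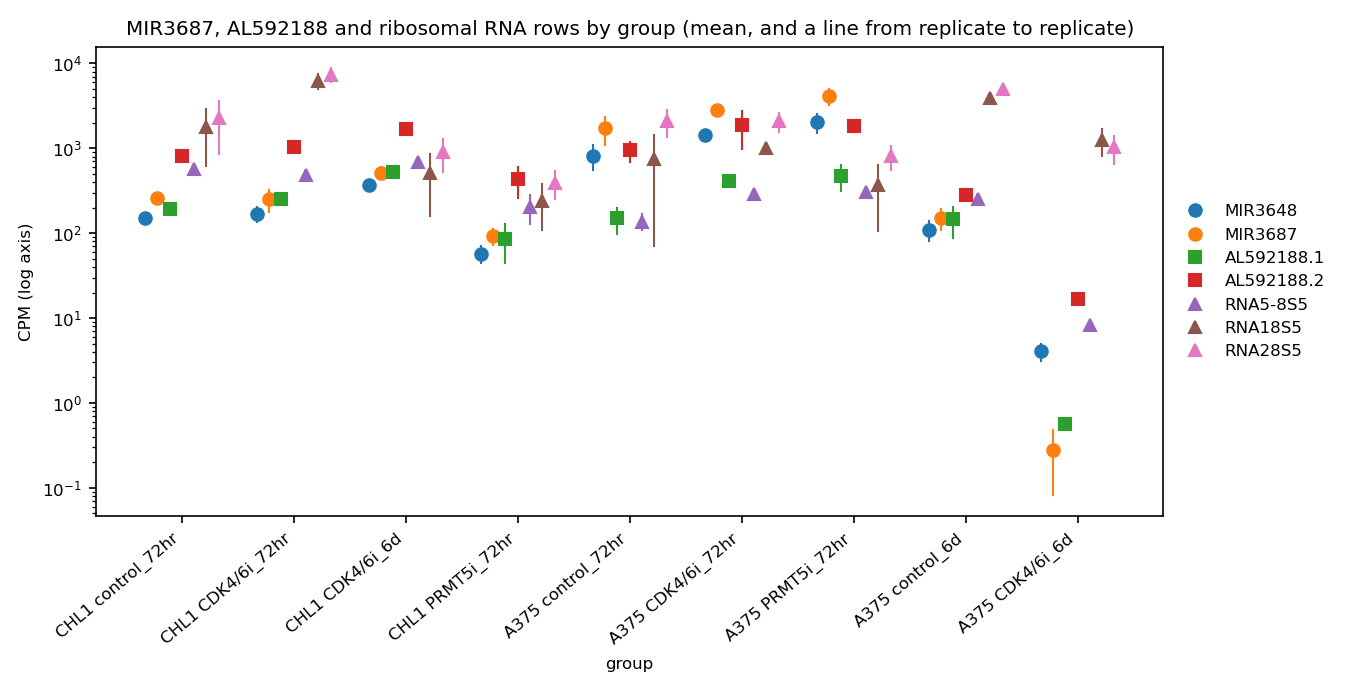
Mean level of MIR3687, AL592188.1, AL592188.2, MIR3648 and 3 rows of ribosomal RNA in each group, in CPM on a log axis, with a line from the lower to the higher replicate; levels are not scaled by length. In A375 CDK4/6i_6d the spacer rows MIR3648 and MIR3687, the plotted AL592188 rows and RNA5-8S5 lie at 16.7 CPM or less, while RNA18S5 and RNA28S5 lie at 1248 and 1035 CPM.

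Of the 14 other rows named for ribosomal RNA or AL592188, 7 fell and 0 rose in CHL1 under PRMT5i, where 54% of all rows were called, 5461 higher and 5715 lower. Their median log2 fold change was -0.92 against 0.00 for all rows. MIR3648 fell, at -1.37 (SE 0.24, adjusted p = 0.000606), and so did AL592188.2 at -0.88 (SE 0.32, adjusted p = 0.0333), AL592188.8 at -1.34 (SE 0.32, adjusted p = 0.00406) and RNA5-8S5 at -1.45 (SE 0.30, adjusted p = 0.00148). MIR3648 has a GC content of 83.9%, both PRMT5i libraries have a GC index below -1, and no fit with the GC curve is given for these rows. RNA28S5 fell as well, with a log2 fold change of -2.50 (SE 0.60), as did RNA18S5 at -2.85 (SE 0.82) and AL592188.4 at -4.30 (SE 0.81). AL592188.3, at -0.95 (SE 0.81), and AL592188.5, at -0.04 (SE 0.97), did not pass. The MT-RNR rows of mitochondrial ribosomal RNA and the RNA5SP rows did not pass either, and the 3 rows of the list with a positive change were among them. In A375, 1 of the 14 rose under CDK4/6i, RNA5-8S5 by 1.03 (SE 0.22, adjusted p = 0.00541), and 2 rose under PRMT5i, RNA5-8S5 by 1.15 (SE 0.22, adjusted p = 0.0118) and AL592188.8 by 1.67 (SE 0.36, adjusted p = 0.0234). Limma voom and DESeq2 each called 1 of them higher under PRMT5i. By edgeR and limma voom 0 of the 14 fell in A375, as by DESeq2, which gave no adjusted p for 4 of them, while 4 under CDK4/6i and 8 under PRMT5i had an unadjusted p below 0.05 in either direction by edgeR. The medians were 0.76 and 0.62. Over all rows, edgeR called 13.3% in A375 under CDK4/6i and 2.61% under PRMT5i. With the replicate block 7 of the 14 rose and 0 fell under CDK4/6i, and 6 rose and 4 fell under PRMT5i. That fit called 42.3% and 29.5% of all rows. MIR3648 in A375 was at 0.76 (SE 0.34, adjusted p = 0.155) under CDK4/6i and 1.28 (SE 0.34, adjusted p = 0.0605) under PRMT5i. The PRMT5i response was lower in CHL1 than in A375 for 5 of the 14, among them MIR3648 at -2.69 (SE 0.49, adjusted p = 0.000565). In that comparison 40.9% of all rows were called.

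Rows named for other short RNAs without a poly(A) tail were picked by symbol, with pseudogene names such as RN7SL338P included. Some, such as RNU6-52P, had a log2 fold change of 0.00 without a standard error in CHL1 under PRMT5i. Such rows enter the median. Of these 81 rows, 22 fell and 7 rose in that comparison, against 54% of all rows called, with a median of 0.00. The 3 most abundant fell: RN7SK, which restrains transcription elongation, at -1.49 (SE 0.28), RN7SL2, the RNA of the signal recognition particle, at -1.67 (SE 0.29), and RPPH1, the RNA of RNase P, at -2.09 (SE 0.33). In A375, 3 of the 81 rose and 0 fell under CDK4/6i, with a median of -0.28: RN7SL3 by 1.76 (SE 0.42), RN7SL471P by 2.37 (SE 0.39) and SCARNA2, which guides snRNA modification, by 0.90 (SE 0.24). Under PRMT5i 0 of the 81 passed in A375 by edgeR or limma voom, and 0 by DESeq2, which gave no adjusted p for 52 of them, with 5 at an unadjusted p below 0.05 by edgeR and a median of -0.05. Over all rows, edgeR called 13.3% in A375 under CDK4/6i and 2.61% under PRMT5i. With the replicate block 8 of the 81 rose and 3 fell under CDK4/6i, and 9 rose and 2 fell under PRMT5i. That fit called 42.3% and 29.5% of all rows. Of the 81, 14 had a lower and 2 a higher PRMT5i response in CHL1 than in A375, against 40.9% of all rows called.

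Genes that make ribosomal RNA were also counted. Of 25 genes of the RNA polymerase I apparatus, 8 rose and 12 fell in CHL1 under PRMT5i, against 54% of all rows called, with a median of -0.56. POLR1A, the largest subunit of the polymerase, fell, at -0.56 (SE 0.15, adjusted p = 0.00662), as did POLR2F, a subunit shared by the nuclear polymerases, at -1.02 (SE 0.25, adjusted p = 0.00403), while NCL, the nucleolar protein nucleolin, was at 0.56 (SE 0.26, adjusted p = 0.0821). In A375 under CDK4/6i 1 of them rose, POLR2F by 0.55 (SE 0.17), and 2 fell, TAF1B, a part of the promoter factor SL1, at -0.95 (SE 0.18) and the helicase DDX11 at -1.03 (SE 0.22). By edgeR, limma voom and DESeq2, which gave no adjusted p for 1 of them, 0 of the 25 passed in A375 under PRMT5i, with 3 at an unadjusted p below 0.05 by edgeR. Over all rows, edgeR called 13.3% in A375 under CDK4/6i and 2.61% under PRMT5i. With the replicate block 4 of the 25 rose and 9 fell under CDK4/6i, and 9 rose and 3 fell under PRMT5i. That fit called 42.3% and 29.5% of all rows. Of the 25, 10 had a lower and 6 a higher PRMT5i response in CHL1 than in A375, against 40.9% of all rows called. Of 24 genes of 5S transcription and the 5S particle, 8 rose and 10 fell in CHL1 under PRMT5i, against the same 54%, with a median of -0.22. RPL5, which binds 5S RNA, fell by 0.46 (SE 0.16), GTF3C1, a subunit of TFIIIC, fell by 1.00 (SE 0.17), and BDP1, a subunit of TFIIIB, rose by 1.20 (SE 0.17). By the same tools 0 of the 24 passed in A375 in either comparison, with 4 at an unadjusted p below 0.05 by edgeR in each. In the blocked fit 5 of the 24 rose and 6 fell under CDK4/6i, and 8 rose and 0 fell under PRMT5i. The shares over all rows were the same 42.3% and 29.5%. Of the 24, 10 had a lower and 5 a higher PRMT5i response in CHL1, against the same 40.9% of all rows.

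As a sign of RNA quality, 15 nuclear and mitochondrial RNAs were followed beside these rows. In CHL1 under PRMT5i, where 54% of all rows were called, MALAT1, a nuclear long RNA, rose by 1.33 (SE 0.17) and MT-ATP8 by 1.01 (SE 0.23). MT-ND1 fell, at -0.69 (SE 0.20), as did MT-CO2, at -0.49 (SE 0.19). The mitochondrial messenger RNAs summed to 10908 and 7635 CPM in those libraries and to 11372 and 10085 CPM in the control. In A375, 6 of the 15 rose under CDK4/6i, among them MT-CO1 by 0.80 (SE 0.22), and 0 passed under PRMT5i by edgeR, limma voom or DESeq2, with 0 at an unadjusted p below 0.05 by edgeR. Over all rows, edgeR called 13.3% in A375 under CDK4/6i and 2.61% under PRMT5i. In the blocked fit 14 of the 15 rose under CDK4/6i, and 8 rose and 1 fell under PRMT5i. That fit called 42.3% and 29.5% of all rows. Between the lines, where 40.9% of all rows were called, the PRMT5i response differed for MALAT1, at 1.48 (SE 0.31), and MT-ND1, at -1.21 (SE 0.43). Their part in the changes of MIR3687 and the AL592188 rows was not tested.

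The genes most like each row were sought by Pearson's r of log2(CPM + 1) over the 18 libraries, among the 15658 genes whose mean level reached 1 CPM. The points share replicates, library sets and, for GC-rich genes, the GC trend, so r is a description. MIR3687 was most like MIR3648 (r = 0.989, and 0.994 over the 16 libraries without A375 CDK4/6i_6d). KDM1A, a lysine demethylase, AL592188.8, TERC, the telomerase RNA, and ZNF579 followed at 0.959, 0.959, 0.948 and 0.942, and ranked 399, 291, 139 and 1017 without those 2 libraries. AL592188.1 was most like AL592188.2 (r = 0.946), followed by MESDC1, RNA5-8S5, C8orf82 and ZNF579 at 0.930, 0.930, 0.915 and 0.879. Without A375 CDK4/6i_6d these were at 0.731, 0.711, 0.579, 0.801 and 0.757, and none ranked among the first 300. AL592188.6 was most like MSX1, a homeobox factor (r = 0.889), ENDOG, a mitochondrial nuclease, MIR3648, RP11-182L21.6 and RP11-47A8.5, at 0.881, 0.862, 0.861 and 0.856. 5S_rRNA, with few reads, was most like RP11-227D13.1 (r = 0.943), GDF6, a growth factor, RP11-510I5.4, PKP2, a desmosome protein, and FAM110C, at 0.905, 0.895, 0.893 and 0.893. Among the rows themselves, MIR3687 was at r = 0.90 with AL592188.1 and 0.61 without A375 CDK4/6i_6d, at 0.82 and 0.84 with AL592188.6, and at -0.25 and -0.34 with RNA18S5. The likeness of MIR3687 to AL592188.1 thus rested in part on the 2 libraries of A375 CDK4/6i_6d, and that to MIR3648 did not.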

How the data were processed

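RNA was isolated with the RNeasy Mini kit, and TruSeq libraries were prepared from poly-T-selected RNA with random primers and sequenced in pairs. The authors aligned reads to GRCh37 with HISAT2 2.0.4 and counted them per gene with HTSeq at default settings (version 0.11.2 in the processing notes), which skips reads that align to several places; strandedness is not given in the sources used here. The deposited values are raw counts for 20705 gene symbols, although the table is named as normalised. Columns were mapped to the 18 libraries through the sample titles and descriptions; the A375 replicates of 6 days were numbered in accession order.

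Counts were scaled by TMM and tested with edgeR 4.0.16 (R 4.3.3; quasi-likelihood test, Benjamini-Hochberg adjustment over all rows, threshold 0.05), with all CHL1 or all A375 libraries in a fit and all 18 for the difference between lines. GC content came from the longest annotated transcript of 16331 genes. Alternatives were DESeq2 1.42.0, limma 3.58.1 (voom), other scalings, a filter of 1 CPM in 2 libraries, other choices of libraries, a GC curve (loess, span 0.4) as an offset, a replicate block, and leaving out each library. The fits of genes with a GC value without the curve and of the 14 numbered libraries, the likeness without A375 CDK4/6i_6d, and the counts of list genes by other tools and with the block were chosen after seeing the data. The members and lists were chosen with earlier results of these data known. The named genes were the members, the 5 genes most like each, the other AL592188 rows with MIR3648, the 3 most abundant genes of each list, and list genes that passed a test where fewer than 5 did.

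The test was tested on simulated data: for CHL1 PRMT5i_72hr versus control_72hr, with 200 of 20705 genes changed, it found 78 of those changed by 1 on the log2 scale and 100 of those changed by 3, with 9 false calls. For A375 PRMT5i_72hr versus control_72hr it found 65 and 100, with 11 false calls. The simulated counts used the fitted dispersions and held no GC trend, and rows with few reads, such as 5S_rRNA, were not among those changed. The real CHL1 comparison called 54% of all rows, so these numbers do not give its rate of false calls. For A375 of 72 hours the deviations of same-numbered replicates correlated at 0.104, 0.353 and 0.132 between groups. The main tests left the replicate number out, and only the fits with the replicate block took it as a pairing. That pairing is an assumption from the data, since the labels give the number alone. Replicates differed beyond sampling noise (chi-square per degree of freedom 8.85 to 145), so none was counted as a duplicate. Nothing in the labels gives separate cultures, so p-values measure the spread between these libraries, which may be technical. Intervals come from the same fits and carry that spread as well, while floors cover counting error only.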

Additional observations from a re-analysis of the deposited data

Results flagged for a closer look

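The PRMT5i response differed between the cell lines for 2 of the rows, in a comparison that called 40.9% of all rows. For MIR3687 the CHL1 response minus the A375 response was -2.74 on the log2 scale, and for AL592188.1 it was -2.83 (edgeR, adjusted p = 0.00104 and 0.00156). In both rows each PRMT5i replicate of CHL1 lay below both CHL1 controls and each PRMT5i replicate of A375 above both A375 controls. These are the libraries of the test itself, so their order adds no support to it. The share of all rows separated in this way was not counted. Both CHL1 PRMT5i_72hr libraries have a GC index below -1, and none of the A375 libraries of 72 hours does. With 2 replicates per group, no group was large enough to set a library apart from its group by its distance from the others.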

How the results depend on the processing

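Over the 3 treatment comparisons and the difference between the lines, the 4 rows kept direction and side of the threshold in 120 alternatives other than leaving out a library, while 5 turned direction, 4 gained and 11 lost a call; with a library left out, the numbers were 153, 15, 4 and 12. In CHL1 under PRMT5i, MIR3687 lost its call with the GC curve (-0.17), as did AL592188.6 in the fit of 18 libraries (-1.80) and with limma voom (-1.70), and 5S_rRNA, near 0, turned with library totals alone (-0.29), 18 libraries (-0.01) and limma voom (0.00). In A375, AL592188.1 lost its call with library totals alone, limma voom and DESeq2 under CDK4/6i (1.38, 1.48 and 1.42) and PRMT5i (1.60, 1.66 and 1.67), and with the filter on low counts under PRMT5i (1.65). MIR3687 under PRMT5i gained one in the fit of the 6 libraries of 72 hours (1.24, adjusted p = 0.0118), and AL592188.6 turned with limma voom (0.81). MIR3687 lost the call on the difference between the lines with the GC curve (-1.40). The GC curve removes the fitted trend by construction and has little support at the GC content of MIR3687. The cause of these shifts was not tested.

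With 1 library left out, the CHL1 PRMT5i change ranged from -1.82 to -1.18 for MIR3687, -2.09 to -0.57 for AL592188.1, -2.18 to -1.22 for AL592188.6 and -1.26 to 1.24 for 5S_rRNA. In A375 under CDK4/6i the ranges were 0.20 to 1.34, 1.00 to 2.02, -2.0 to 6.21 and -1.26 to 0.18, and under PRMT5i 0.79 to 1.90, 1.09 to 2.26, -2.57 to 4.24 and -0.12 to 1.11. For the difference between the lines they were -3.46 to -2.24, -3.71 to -2.24, -6.11 to 0.82 and -1.86 to 0.54.

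The main fits did not pair same-numbered replicates in either line. In CHL1 their deviations correlated at -0.234 to 0.269 between groups. With the replicate block there, MIR3687, AL592188.1 and AL592188.6 under PRMT5i were at -1.46, -1.19 and -1.75, and the calls stood. With the replicate block on the 6 A375 libraries of 72 hours, MIR3687 passed under CDK4/6i (0.75) and PRMT5i (1.29), AL592188.6 passed under CDK4/6i (0.99) and turned under PRMT5i (0.20), and the calls of AL592188.1 stood. With the block on the 14 numbered libraries no call on the difference between the lines changed.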
